A study of Mus musculus with 9 samples.

Results

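Laminins, matrix glycoproteins and proteoglycans were followed in the mouse renal cortex as a list of 35 genes, chosen by name for their place in the extracellular matrix, with earlier results of these data known. The list held 10 laminin chain genes, 4 genes of basement membrane linkers and heparan sulfate proteoglycans, 12 genes of microfibrils and elastic fibres, 4 genes of small leucine-rich and large chondroitin sulfate proteoglycans, and 5 genes of fibronectin and matricellular proteins. All 35 were among the 21950 genes with mRNA values, and 34 of them were abundant enough to be tested. The only one below the limit was Fbn2, the gene of a second fibrillin, whose mean level was 0.0155 FPKM (fragments scaled by transcript length and by library depth).

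The study compared the renal cortex of 3 groups of male mice at 15 weeks of age, with 3 mice and 1 RNA-seq library per mouse in each group. The dbdb group was homozygous for the db mutation of the leptin receptor gene Lepr (on the C57BL/KsJ background) and received a vehicle by gavage, and the dbR group had the same genotype and received 20 mg/kg/day of rosiglitazone, a thiazolidinedione that activates the nuclear receptor PPARγ, for 8 weeks from 7 weeks of age. The control group held nondiabetic db/m littermates with 1 copy of the db mutation, for which no gavage is described. The db mutation is present from conception in all tissues, so effects on the kidney cannot be told apart from those of obesity or of diabetes, and rosiglitazone was given only to db/db mice.

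The matrix genes encode proteins that cells secrete and that assemble outside them. Laminins are trimers of α, β and γ chains and form the sheet on which a basement membrane is built, and nidogens and perlecan tie this sheet to the network of type IV collagen. Fibrillins form microfibrils on which elastin, fibulins and emilins assemble, while small leucine-rich proteoglycans such as biglycan and decorin bind collagen fibrils. In the kidney, basement membranes surround every tubule, capillary and glomerular loop, and the glomerular basement membrane is part of the filtration barrier that is altered in diabetic nephropathy.

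Each library held an estimated 26.4 M to 33 M fragments, as read from the steps between low FPKM values, and mitochondrial transcripts took 26.9% to 32.8% of the mRNA FPKM. Libraries of the same group correlated between 0.985 and 0.992 over all genes tested. Lepr had a gene level of 1.19, 1.05 and 1.23 FPKM in the control mice, 0.652, 0.331 and 0.304 FPKM in the dbdb mice and 0.512, 0.390 and 0.335 FPKM in the dbR mice, so that both db/db groups lay below every control mouse, although a gene level does not show the mutation itself. The 5 markers of the proximal tubule, the main cell type of the cortex, summed to between 2212 and 2956 FPKM per library, while the 3 markers of the inner medulla summed to at most 1.85 FPKM. Among the libraries, control replicate 1 had the highest values of Lum and Postn, with 1.32 and 1.11 FPKM, and control replicate 3 that of Vcan, with 0.590 FPKM. Of this Vcan value, 0.498 FPKM came from a transcript of 294 bases that was at 0 in every other library. It rests on an estimated 1 fragment.

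The levels of the 35 genes spanned a wide range. By mean FPKM over the 9 libraries, which is a level per transcript length, 9 genes lay at or above 10 FPKM, 16 between 1 and 10 FPKM and 10 below 1 FPKM. The highest were Bgn (biglycan) at 37.5 FPKM, Lamb1 (the laminin β1 chain) at 36.1 FPKM and Sparc (a matricellular collagen-binding protein) at 35.5 FPKM. The other members of the small proteoglycan group lay below Bgn, as Dcn had a mean of 9.32 FPKM, Lum of 0.540 FPKM and Vcan of 0.202 FPKM. A heat map of the 34 tested genes in each library shows a block of higher values in the dbR mice that runs through Lama2, Nid1, Fbn1, Fbln5, Efemp2, Emilin1 and Bgn.

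**Figure D1:**
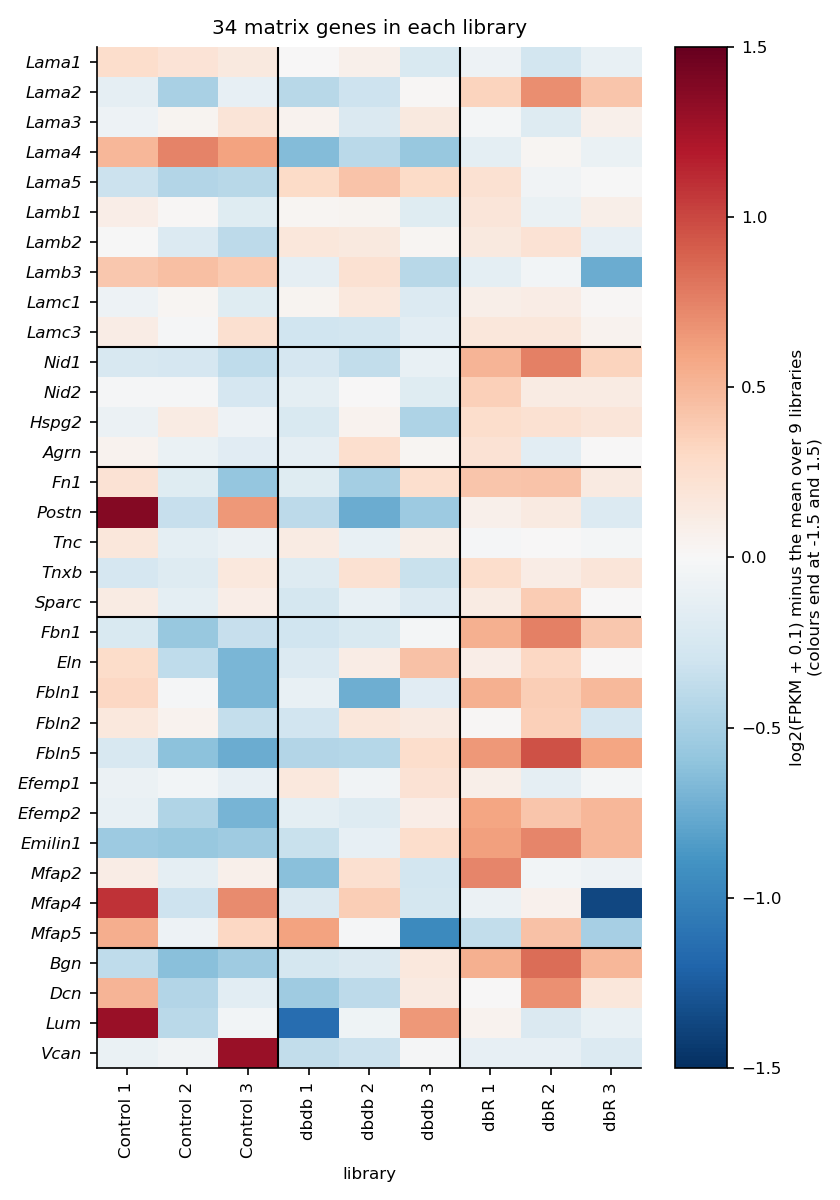
Level of each of the 34 tested matrix genes (rows) in each of the 9 libraries (columns), as log2(FPKM + 0.1) minus the mean of that gene over the 9 libraries, with black lines between the groups of mice and between the roles of the genes. Lama2, Nid1, Fbn1, Fbln5, Efemp2, Emilin1 and Bgn are red in all 3 dbR libraries, Lama4 is darkest red in the control libraries, and control replicate 1 is dark red for Postn and Lum.

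Differences between groups were tested on log2(FPKM + 0.1) in 1 limma model of the 9 libraries, and a gene was called at a Benjamini-Hochberg adjusted p under 0.05 over all 14537 genes tested. The p-values rest on the spread between mice within groups, pooled over the 3 groups and drawn by limma toward a trend over all genes. A gene therefore has the same SE in each comparison. Of the 34 tested matrix genes, 6 were called in dbdb vs. control, beside 26.4% of all genes tested, with 3 higher (beside 13.1%) and 3 lower (beside 13.4%). In dbR vs. dbdb, 3 matrix genes were called, all higher in dbR, beside 0.743% of all genes tested (0.564% higher and 0.179% lower). In dbR vs. control, 10 matrix genes were called, 8 higher and 2 lower, beside 24.1% of all genes tested (12.3% higher and 11.8% lower). The 3 comparisons share their libraries and are therefore not independent of each other.

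The median log2 fold change of the 34 genes was -0.01 in dbdb vs. control, 0.29 in dbR vs. dbdb and 0.17 in dbR vs. control, while the median over all genes tested was close to 0 in each comparison (-0.003, -0.002 and -0.001). When dbR was compared to dbdb, 24 of the 34 genes had a log2 fold change above 0, and in 14 of them every dbR mouse lay above every dbdb mouse, beside 10.7% of all genes tested. The groups did not overlap in the other direction for 1 gene, Lama5, beside 11.9% of all genes tested. At an unadjusted p under 0.05, 13 matrix genes were higher and 1 was lower in dbR than in dbdb, beside 9.43% and 8.05% of all genes tested. The share of called genes that were higher depended on the scaling: over all genes it was 49.5% in dbdb vs. control, 75.9% in dbR vs. dbdb and 51.1% in dbR vs. control, and it became 78.3%, 48.6% and 70.5% when mitochondrial genes were left out and the sums of the other genes set equal, which moved the median of all genes by up to 0.15 on the log2 scale. With mitochondrial genes left out, the matrix genes called in dbdb vs. control were 5 higher and 1 lower, beside 24% and 6.67% of all genes tested. In the same setting 1 was higher and 0 lower in dbR vs. dbdb, beside 0.358% and 0.379%, and 8 were higher and 1 lower in dbR vs. control, beside 16.5% and 6.93%. Scaling to the 75th percentile gave 62.1% in dbR vs. control.

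The calls in dbR vs. dbdb depended on single libraries and settings. Without dbR replicate 2, 2 genes in all and no matrix gene were called, and without dbdb replicate 1 or dbdb replicate 2 no matrix gene was called by limma. At an unadjusted p under 0.05, between 12 and 16 matrix genes were higher and 1 or 2 lower in all 21 alternative analyses. The shares of all genes at that p, 9.43% and 8.05%, are those of the main fit. For the alternatives they are not given here, so these counts cannot be set against them. Without control replicate 3, dbR replicate 1 or dbR replicate 3, only Nid1 was called among the matrix genes. Without dbdb replicate 3, the 6 matrix genes Bgn, Emilin1, Fbln5, Fbn1, Lama2 and Nid1 were called. The same 6 were called after scaling to the 75th percentile, after quantile normalization and with libraries weighted by their quality.

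**Figure D2:**
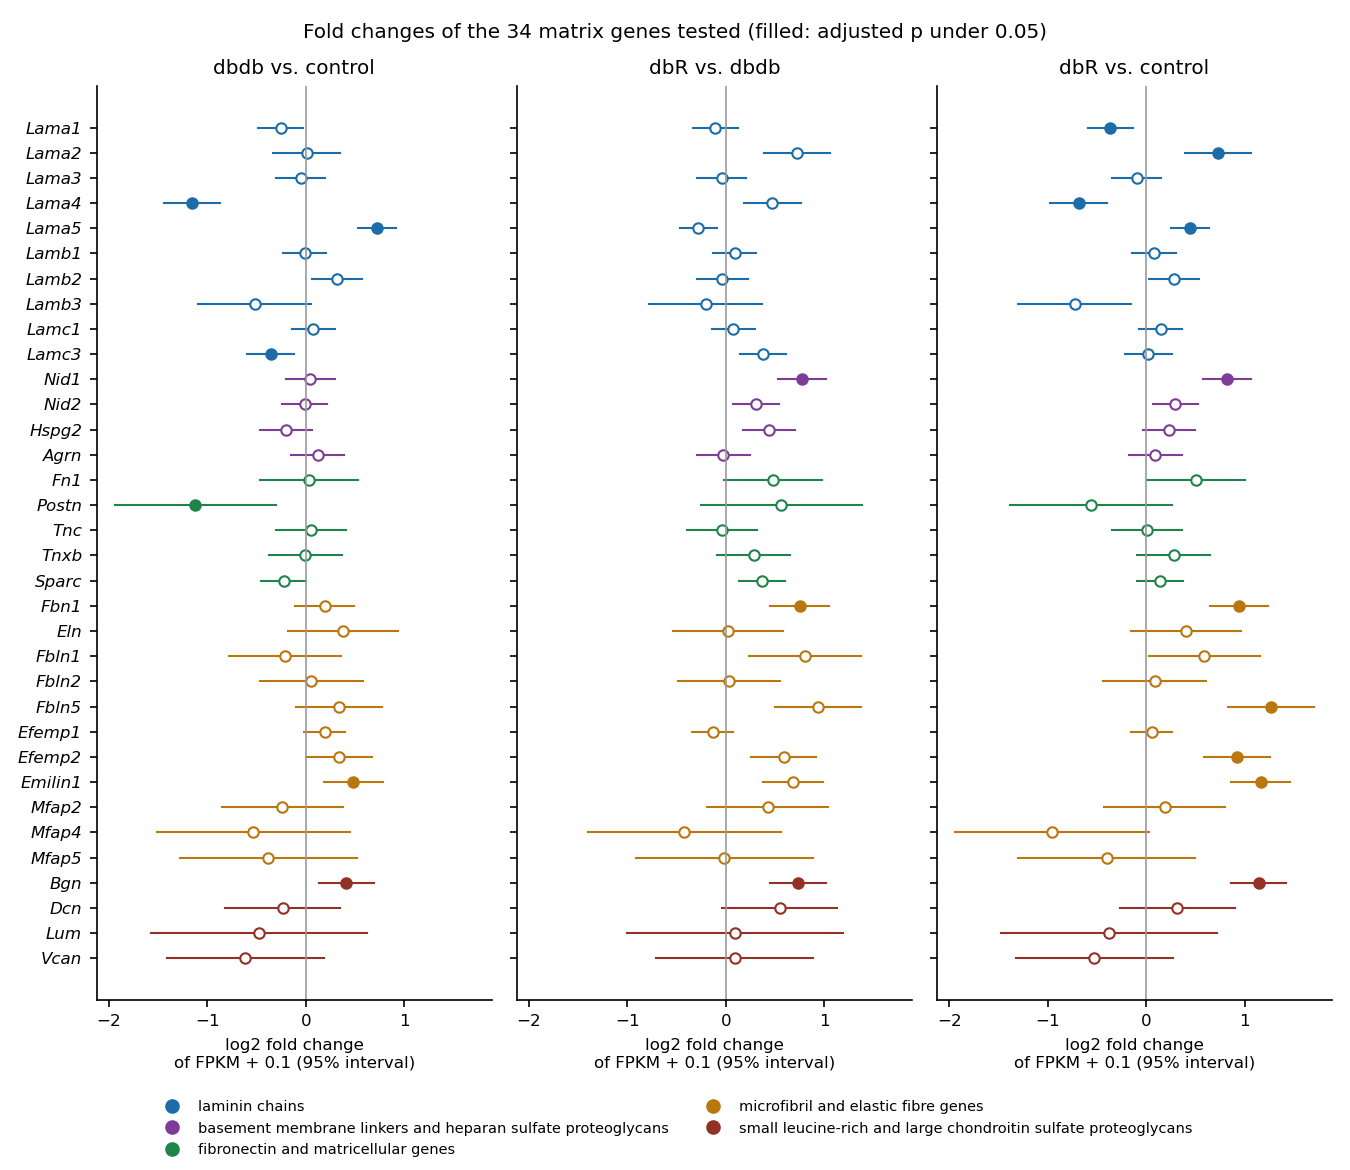
Log2 fold change of FPKM + 0.1 (x axis) of the 34 tested matrix genes (y axis, coloured by role) in dbdb vs. control, dbR vs. dbdb and dbR vs. control, with bars for the 95% interval of the limma model and filled points for an adjusted p under 0.05. The filled points are 6, 3 and 10, and 8 of the 11 points of the microfibril and elastic fibre genes lie to the right of 0 in the panel for dbR vs. dbdb.

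Among the laminin chains, Lama4 and Lama5 differed most between dbdb and control mice. Lama4 (ENSMUSG00000019846), which encodes the α4 chain of endothelial basement membranes (chr10:38965515-39110188, plus strand, GRCm38), fell in the dbdb mice to less than the level of any control mouse. Its level was 1.85, 2.21 and 2.00 FPKM in the control mice, 0.779, 0.944 and 0.834 FPKM in the dbdb mice and 1.15, 1.32 and 1.19 FPKM in the dbR mice. The 3 groups did not overlap, and the dbR mice lay between the other groups. On the log2 scale, Lama4 differed by -1.15 ± 0.13 (SE, n = 3 per group, limma adjusted p = 0.000221) in dbdb vs. control, which is 2.23-fold lower, and by -0.68 ± 0.13 (limma adjusted p = 0.00432) in dbR vs. control. Between dbR and dbdb mice it was 0.47 ± 0.13 (limma adjusted p = 0.107), which did not pass the test. The Lama4 values rest on 122 to 350 fragments per library.

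Lama5 (ENSMUSG00000015647), which encodes the α5 chain of the mature glomerular and of tubular basement membranes (chr2:180176373-180225859, minus strand, GRCm38), rose in the dbdb mice. Its level was 7.88, 7.27 and 7.41 FPKM in the control mice, 12.1, 13.3 and 12.1 FPKM in the dbdb mice and 11.6, 9.55 and 9.81 FPKM in the dbR mice. Here too the groups did not overlap and the dbR mice lay between the others. The log2 fold change was 0.73 ± 0.09 (SE, limma adjusted p = 0.000305) in dbdb vs. control, which is 1.65-fold higher, and 0.45 ± 0.09 (limma adjusted p = 0.00479) in dbR vs. control. Between dbR and dbdb mice it was -0.28 ± 0.09 (limma adjusted p = 0.144). Both chains were called against the controls, in dbdb and in dbR mice, in all 21 alternative analyses.

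Lama5, Bgn and Nid1 are shown with the sequence before their start, since Lama5 had the clearest rise among the laminin chains in the dbdb mice, and Bgn and Nid1 were called as higher in dbR vs. dbdb. Fbn1 was called there too and is not shown, since its RefSeq start lies inside the gene as placed by GENCODE vM21. The RefSeq start of Nid1 also lies inside its gene. Nid1 is shown without the 51 bases before that start that fall in the gene, which leaves 199 bases. The sequences are from the RefSeq promoter table (GRCm38.p6), which holds 22 of the 35 genes, and are written 5′ to 3′ on the strand of the gene, without bases that GENCODE vM21 places in the gene. Capitals mark the letters GGGCGG on either strand, the core of a GC box. The other letters searched on both strands were those of an AP-1 site, TGANTCA, of the SMAD element, CAGACA, and of the core promoter box TATAAA, and they are in none of the 3 stretches.
Lama5, chr2:180225860-180226109, minus strand: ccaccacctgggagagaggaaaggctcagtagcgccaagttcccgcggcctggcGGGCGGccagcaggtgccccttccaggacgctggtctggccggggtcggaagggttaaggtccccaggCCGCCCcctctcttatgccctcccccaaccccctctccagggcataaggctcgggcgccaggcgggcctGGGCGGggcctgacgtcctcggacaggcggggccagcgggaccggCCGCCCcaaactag
Bgn, chrX:73483351-73483600, plus strand: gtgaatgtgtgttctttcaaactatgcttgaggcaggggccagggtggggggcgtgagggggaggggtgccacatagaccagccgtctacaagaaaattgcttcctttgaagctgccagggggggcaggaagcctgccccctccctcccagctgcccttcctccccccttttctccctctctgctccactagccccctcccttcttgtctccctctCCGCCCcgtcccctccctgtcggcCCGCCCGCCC
Nid1, chr13:13437352-13437550, plus strand: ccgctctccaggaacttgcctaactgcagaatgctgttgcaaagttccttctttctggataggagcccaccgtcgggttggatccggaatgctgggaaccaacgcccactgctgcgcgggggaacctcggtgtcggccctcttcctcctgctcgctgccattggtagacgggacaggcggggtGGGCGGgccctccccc

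The printed stretch of Lama5 holds GGGCGG at 4 places, that of Bgn at 3 places, of which the last pair overlap, and that of Nid1 at 1 place. Among all 32851 promoters of the table, GGGCGG is held by 35.7%, TGANTCA by 7.81%, CAGACA by 21.04% and TATAAA by 13.6%, counted over windows of 300 bases that run from 250 bases before the start to 50 bases after it. Of the 31 promoter windows of the matrix genes, GGGCGG is held by 64.5%, TGANTCA by 6.45%, CAGACA by 32.3% and TATAAA by 9.68%. These matches are a description of the letters, and binding was not measured.

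Lama1, the α1 chain that is prominent in developing kidney and stays in tubular basement membranes (chr17:67697259-67822647, plus strand, GRCm38), fell in the dbR mice relative to the controls. It had 5.31, 5.09 and 4.86 FPKM in the control mice, 4.41, 4.65 and 3.73 FPKM in the dbdb mice and 4.16, 3.602 and 4.05 FPKM in the dbR mice. All db/db mice, treated or not, lay below all controls. The log2 fold change was -0.36 ± 0.10 (SE, limma adjusted p = 0.028) in dbR vs. control and -0.25 ± 0.10 (limma adjusted p = 0.094) in dbdb vs. control. The former call was lost without any 1 of the control libraries and without dbR replicate 2 or 3. It was also lost when mitochondrial genes were left out and the sums set equal.

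Lama2, the α2 chain found in muscle and in the mesangium (chr10:26980036-27619758, minus strand, GRCm38), rose in the dbR mice relative to the controls. It had 3.46, 2.69 and 3.49 FPKM in the control mice, 2.83, 3.04 and 3.86 FPKM in the dbdb mice and 4.83, 6.24 and 5.09 FPKM in the dbR mice, so that the dbR mice lay above all others while control and dbdb mice overlapped. The log2 fold change was 0.73 ± 0.15 (SE, limma adjusted p = 0.00702) in dbR vs. control and 0.72 ± 0.15 (limma adjusted p = 0.0593) in dbR vs. dbdb. In dbdb vs. control it was 0.01, with a 95% interval from -0.33 to 0.35. Lama3, an α chain of epithelial basement membranes, had group means of 12.3, 11.9 and 11.5 FPKM in the control, dbdb and dbR mice, and it differed between dbdb and control mice by -0.05 on the log2 scale (95% interval -0.30 to 0.20).

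The β and γ chains Lamb1, Lamb2 and Lamc1 varied less than Lama4 and Lama5. Lamb1 had 38.7, 36.3 and 31.6 FPKM in the control mice, 36.8, 37.2 and 31.9 FPKM in the dbdb mice and 40.8, 33.7 and 38.2 FPKM in the dbR mice, so that the groups overlapped throughout. Between dbdb and control mice it differed by -0.01 on the log2 scale, with a 95% interval from -0.23 to 0.21. Lamc1, the γ1 chain shared by most laminins, had a log2 fold change of 0.07 (95% interval -0.14 to 0.29) in dbdb vs. control and the same value in dbR vs. dbdb. Lamb2, the β2 chain of the mature glomerular basement membrane, had group means of 9.32, 11.6 and 11.3 FPKM in the control, dbdb and dbR mice, and the difference between dbdb and control mice, 0.32 ± 0.11 (SE) on the log2 scale, had a limma adjusted p of 0.0674. Lamb3, a β chain of epithelial laminin, lay at or below 0.370 FPKM in every library, with 11 to 47 fragments, and was called in no comparison.

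Lamc3, the γ3 chain (chr2:31887291-31946539, plus strand, GRCm38), fell in the dbdb mice and was at the level of the controls in the dbR mice. It had 2.40, 2.18 and 2.64 FPKM in the control mice, 1.78, 1.81 and 1.98 FPKM in the dbdb mice and 2.51, 2.504 and 2.31 FPKM in the dbR mice. Every dbdb mouse was below every mouse of the other groups. The log2 fold change was -0.36 ± 0.11 (SE, limma adjusted p = 0.0338) in dbdb vs. control, 0.38 ± 0.11 (limma adjusted p = 0.118) in dbR vs. dbdb and 0.02 (95% interval -0.22 to 0.26) in dbR vs. control. The call in dbdb vs. control was kept in 14 of 21 alternatives, and was lost without control replicate 1 or 3 and without dbdb replicate 1 or 2. It was also lost when mitochondrial genes were left out and the sums set equal. The same held with only the 6 libraries of the comparison and with the replicate number as a block.

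Because laminins are trimers, the α and β chains were also expressed as shares of the summed FPKM of their class, as a description without a test. Among the α chains, Lama5 held 25.0% ± 1.43 (SD, n = 3) in the control mice, 38.2% ± 2.92 in the dbdb mice and 31.8% ± 2.51 in the dbR mice. Lama4 held 6.71% ± 0.707, 2.61% ± 0.290 and 3.77% ± 0.414 in the same order, and Lama1 held 16.9%, 13.1% and 12.2%. Lama2 held 10.7% ± 1.33 in the control mice, 9.88% ± 1.43 in the dbdb mice and 16.7% ± 2.98 in the dbR mice. Lama3 held the largest α share in the control mice, 40.7%, while in the dbdb mice its 36.2% ± 4.02 and the 38.2% of Lama5 were within their spread.

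Among the β chains, Lamb1 held between 72.8% and 79.4% in every library, and Lamb2 held 20.6%, 24.6% and 23.1% on average in the control, dbdb and dbR mice. The order of the α chains depended on how reads were divided among transcripts, since with only the leading transcript of each gene Lama5 held 30.7% ± 1.63, 45.0% ± 2.56 and 37.7% ± 1.65 in the control, dbdb and dbR mice and Lama3 held 29.3% ± 2.77, 27.5% ± 3.28 and 27.8% ± 2.09.

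**Figure D3:**
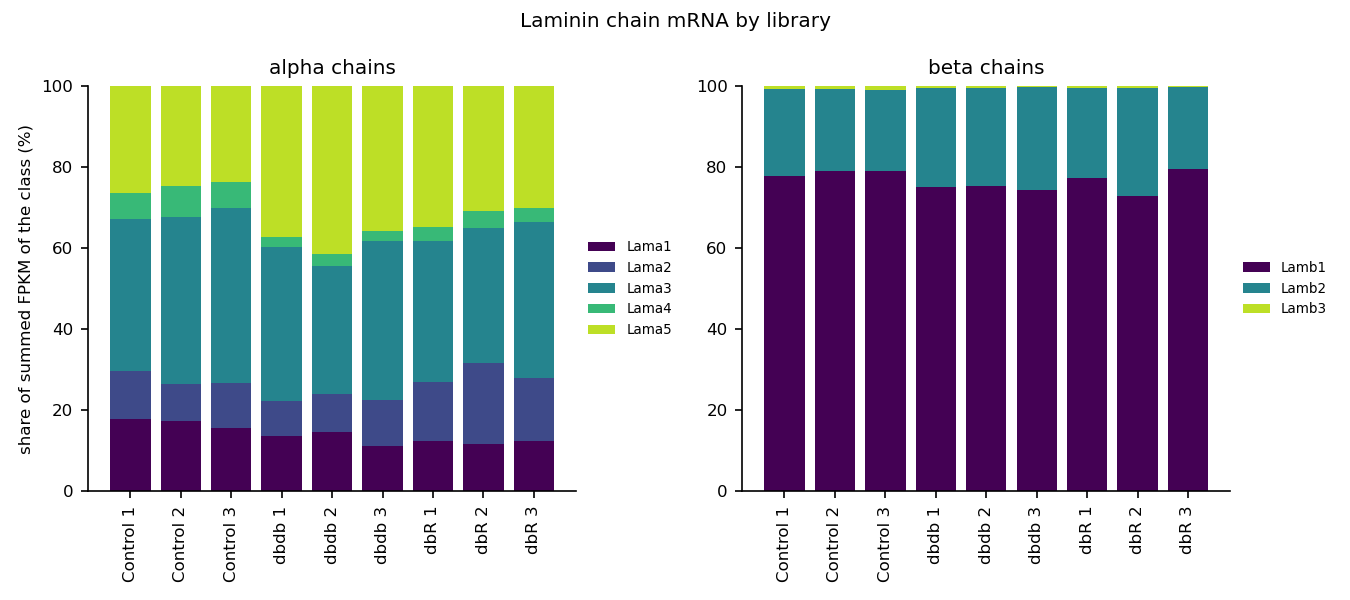
Share of each laminin chain in the summed FPKM of the α and of the β chains (y axis, in percent) in each library (x axis), as stacked bars. The yellow α5 part is largest in the 3 dbdb libraries, between 35.8% and 41.5%, and the green α4 part is largest in the 3 control libraries, between 6.22% and 7.52%.

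The markers of endothelium, the cell type best known for the α4 chain, moved in the same samples as Lama4. All 5 endothelial markers (Pecam1, Cdh5, Kdr, Emcn and Ehd3) were detected, and they summed to between 98.6 and 107 FPKM in the control mice, between 73.3 and 78.1 FPKM in the dbdb mice and between 101 and 117 FPKM in the dbR mice. Of these, 4 fell in dbdb vs. control, and 2 rose in dbR vs. dbdb, Kdr (limma adjusted p = 0.0309) and Emcn (limma adjusted p = 0.0205). The sums in the dbR mice overlapped those of the controls, while Lama4 in the dbR mice stayed below the controls. The 5 podocyte markers, from a cell type that makes α5, summed to between 73.4 and 83.8 FPKM in the control mice, between 86.0 and 92.3 FPKM in the dbdb mice and between 79.4 and 96.6 FPKM in the dbR mice. The sums of the markers of 2 kinds of tubule segment were also higher in every dbdb mouse than in any control. The 4 collecting duct markers summed to between 96.4 and 118 FPKM in the control mice, between 147 and 237 FPKM in the dbdb mice and between 160 and 177 FPKM in the dbR mice. The 4 markers of thick limb and distal tubule summed to between 469 and 577 FPKM, between 665 and 956 FPKM and between 697 and 777 FPKM in the same order. Unlike Lama5, these sums overlapped between dbR and dbdb mice. In dbdb vs. control, 2 of 5 podocyte, 3 of 4 collecting duct and 2 of 4 thick limb markers were called, all higher. Their log2 fold changes ran from -0.19 to 0.86, 0.20 to 1.34 and -0.10 to 2.12. The sums of the 5 proximal tubule markers overlapped between control (2212 to 2533 FPKM) and dbdb mice (2349 to 2956 FPKM). The part of these markers in the results was not tested, and in whole cortex fewer cells of a type and less RNA per cell cannot be told apart.

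Of the 4 basement membrane linkers and heparan sulfate proteoglycans, Nid1 was called, as higher in the dbR mice, and the others were called in no comparison. Beside this, 0.743% of all genes tested were called in dbR vs. dbdb (0.564% higher) and 24.1% in dbR vs. control (12.3% higher). Nid1 (ENSMUSG00000005397), which encodes nidogen 1 (chr13:13437551-13512269, plus strand, GRCm38), was the matrix gene with the smallest p in dbR vs. dbdb. Its level was 9.61, 9.52 and 8.74 FPKM in the control mice, 9.53, 8.81 and 10.5 FPKM in the dbdb mice and 16.2, 19.3 and 14.3 FPKM in the dbR mice. Control and dbdb mice overlapped, and every dbR mouse lay above them. The log2 fold change was 0.77 ± 0.11 (SE, limma adjusted p = 0.0251) in dbR vs. dbdb, which is 1.71-fold higher, and 0.82 ± 0.11 (limma adjusted p = 0.000682) in dbR vs. control, against 0.05 (95% interval -0.20 to 0.29) in dbdb vs. control. The call in dbR vs. dbdb was made in 15 of 21 alternative analyses and was lost without dbdb replicate 1 or 2 or dbR replicate 2, without the variance trend, with only the 6 libraries and with the replicate block, with adjusted p up to 0.106.

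Nid2, the other nidogen gene, had group means of 4.26, 4.22 and 5.25 FPKM in the control, dbdb and dbR mice, with a log2 fold change of 0.31 ± 0.10 (SE, limma adjusted p = 0.171) in dbR vs. dbdb. Hspg2, which encodes perlecan, had means of 9.51, 8.34 and 11.2 FPKM, with a log2 fold change of 0.43 ± 0.12 (limma adjusted p = 0.106) in dbR vs. dbdb. In both genes every dbR mouse lay above every dbdb mouse and every control mouse, but neither passed the test. Agrn, which encodes agrin, the main heparan sulfate proteoglycan of the glomerular basement membrane, had means of 12.3, 13.5 and 13.2 FPKM, with a log2 fold change of -0.03 (95% interval -0.29 to 0.24) in dbR vs. dbdb.

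Of the 11 tested microfibril and elastic fibre genes, 1 was called in dbdb vs. control (Emilin1), 1 in dbR vs. dbdb (Fbn1) and 4 in dbR vs. control (Fbn1, Fbln5, Efemp2 and Emilin1). All were higher in the group named first, beside 13.1%, 0.564% and 12.3% of all genes tested. In either direction these shares were 26.4%, 0.743% and 24.1%. The median log2 fold change of the 11 genes was 0.19, 0.43 and 0.40 in the 3 comparisons. In dbR vs. dbdb, 5 of the 11 genes had no overlap between the groups, which were these 4 and Fbln1, all higher in dbR, beside 10.7% of all genes tested.

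Fbn1 (ENSMUSG00000027204), which encodes fibrillin 1, the backbone of microfibrils (chr2:125300594-125507993, minus strand, GRCm38), rose in the dbR mice. It had 2.00, 1.57 and 1.85 FPKM in the control mice, 1.91, 2.01 and 2.31 FPKM in the dbdb mice and 3.46, 4.06 and 3.16 FPKM in the dbR mice. The change on the log2 scale was 0.75 ± 0.13 (SE, limma adjusted p = 0.0426) in dbR vs. dbdb, which is 1.68-fold higher, and 0.94 ± 0.13 (limma adjusted p = 0.000953) in dbR vs. control. In dbdb vs. control it was 0.19 (95% interval -0.10 to 0.49). The call in dbR vs. dbdb was made in 9 of 21 alternative analyses, and the losses included those without control replicate 3, without dbdb replicate 1 or 2 and without any 1 of the dbR libraries.

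Emilin1 (ENSMUSG00000029163), a glycoprotein at the surface of elastic fibres (chr5:30913402-30921277, plus strand, GRCm38), rose in both db/db groups relative to the controls. It had 4.45, 4.37 and 4.47 FPKM in the control mice, 5.13, 5.99 and 7.84 FPKM in the dbdb mice and 10.04, 10.9 and 9.24 FPKM in the dbR mice, with no overlap between any of the groups. The change on the log2 scale was 0.48 ± 0.13 (SE, limma adjusted p = 0.0255) in dbdb vs. control, 0.68 ± 0.13 (limma adjusted p = 0.0519) in dbR vs. dbdb and 1.16 ± 0.13 (limma adjusted p = 0.000314) in dbR vs. control, the last being 2.24-fold higher. The call in dbdb vs. control was kept in 15 of 21 alternatives and was lost without any 1 of the control libraries, without dbdb replicate 2 or 3 and with only the 6 libraries, with adjusted p up to 0.0652.

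Fbln5, which encodes fibulin 5, a protein that tethers elastic fibres to cells (chr12:101746565-101819055, minus strand, GRCm38), had 11.3, 8.64 and 7.90 FPKM in the control mice, 9.81, 9.90 and 16.0 FPKM in the dbdb mice and 20.96, 25.9 and 20.1 FPKM in the dbR mice. The dbR mice lay above all others, and dbdb replicate 3 lay above the other dbdb mice. Its log2 fold change of 1.27 ± 0.20 (SE, limma adjusted p = 0.00151) in dbR vs. control, 2.41-fold higher, was the highest of the 34 genes in that comparison. Between dbR and dbdb mice it was 0.93 ± 0.20 (limma adjusted p = 0.0586), which did not pass the test with all libraries and did in 4 of 21 alternatives, among them without dbdb replicate 3.

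Efemp2, which encodes fibulin 4, required for elastic fibre assembly (chr19:5473954-5482517, plus strand, GRCm38), had 2.56, 2.00 and 1.68 FPKM in the control mice, 2.499, 2.41 and 2.97 FPKM in the dbdb mice and 4.25, 3.75 and 3.95 FPKM in the dbR mice. The dbR mice lay above all others here as well. Its log2 fold change was 0.92 ± 0.15 (SE, limma adjusted p = 0.00185) in dbR vs. control and 0.58 ± 0.15 (limma adjusted p = 0.0906) in dbR vs. dbdb. The FPKM of Efemp2 was divided among 10 transcripts, of which the leading one held 69.8%.

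The other genes of this group did not pass the test in any comparison. Fbln1 (fibulin 1) had means of 1.01, 0.839 and 1.51 FPKM in the control, dbdb and dbR mice, with a log2 fold change of 0.80 ± 0.25 (SE, limma adjusted p = 0.154) in dbR vs. dbdb. Eln, which encodes elastin itself, had means of 0.887, 1.15 and 1.16 FPKM, with a log2 fold change of 0.02 (95% interval -0.54 to 0.58) in dbR vs. dbdb. Efemp1 (fibulin 3) had means of 5.199, 5.98 and 5.43 FPKM. Fbln2, Mfap2, Mfap4 and Mfap5, a fibulin and microfibril-associated glycoproteins, had means between 0.236 and 0.692 FPKM in all groups, and the intervals of Mfap4 and Mfap5 in dbR vs. dbdb reached from -1.40 to 0.56 and from -0.91 to 0.88.

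**Figure D4:**
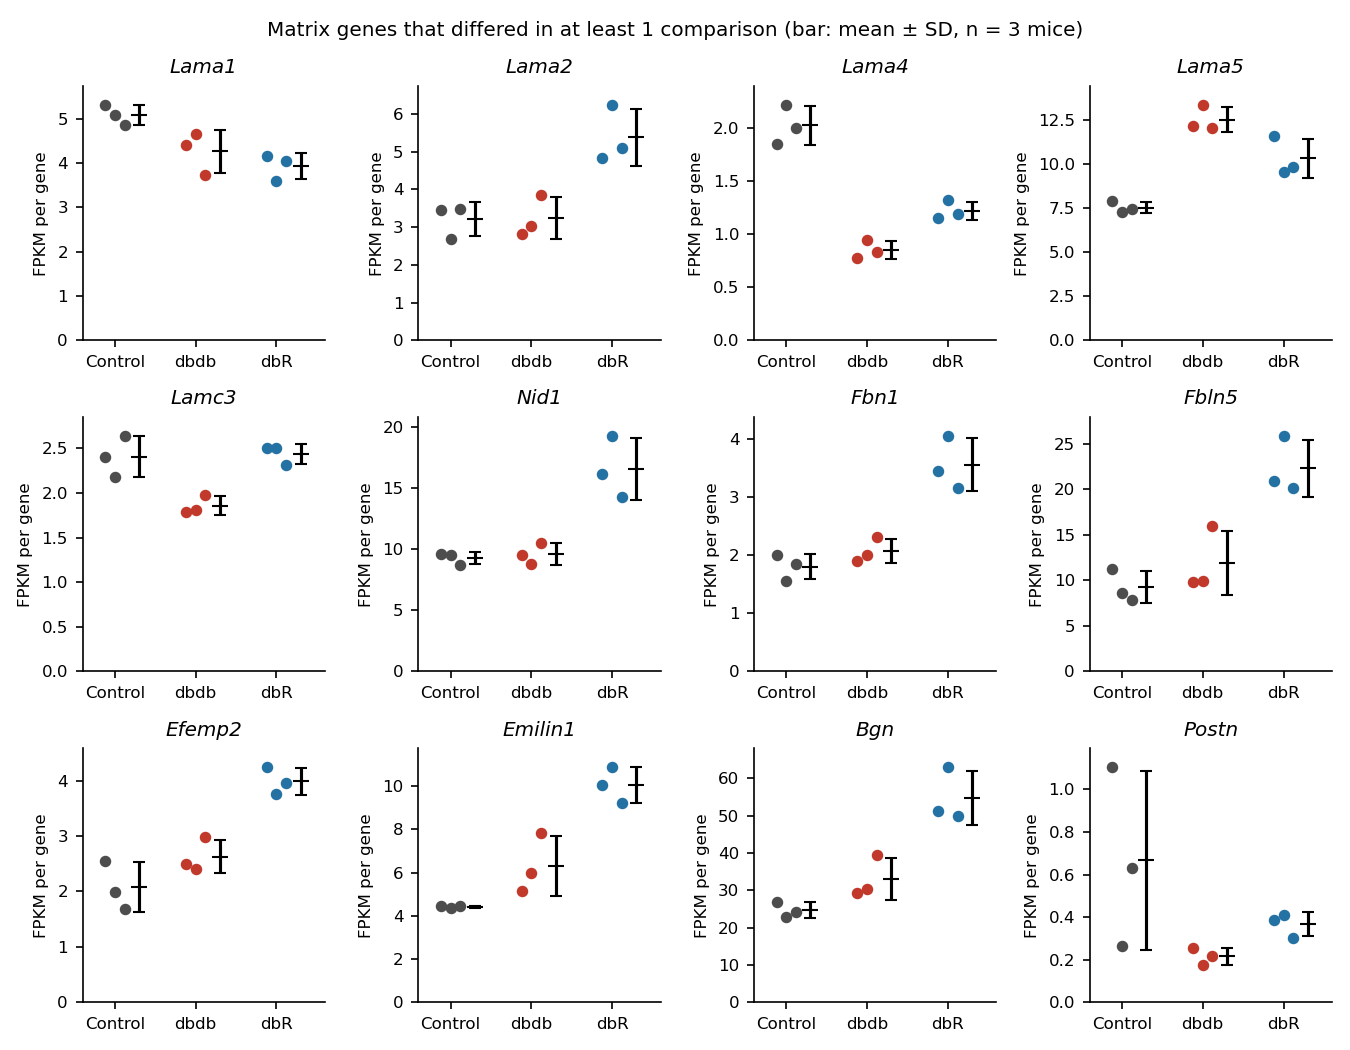
FPKM per gene (y axis, from 0) in each mouse (points) of the control, dbdb and dbR groups (x axis) for the 12 matrix genes called in at least 1 comparison, with bars for the mean and SD of 3 mice. Lama4 and Lama5 run in opposite directions with dbR between the other groups, whereas in Nid1, Fbn1, Fbln5, Efemp2, Lama2, Emilin1 and Bgn the 3 dbR mice lie above all other mice.

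Bgn (ENSMUSG00000031375), which encodes biglycan (chrX:73483602-73495933, plus strand, GRCm38), was the only matrix gene called in all 3 comparisons. Its level was 27.0, 22.8 and 24.3 FPKM in the control mice, 29.4, 30.4 and 39.5 FPKM in the dbdb mice and 51.2, 63.1 and 49.96 FPKM in the dbR mice. The groups did not overlap, and dbdb replicate 3 was the highest of the dbdb mice. The change on the log2 scale was 0.41 ± 0.13 (SE, limma adjusted p = 0.037) in dbdb vs. control, 0.73 ± 0.13 (limma adjusted p = 0.0389) in dbR vs. dbdb and 1.14 ± 0.13 (limma adjusted p = 0.000249) in dbR vs. control, the last being 2.21-fold higher. The call in dbdb vs. control was kept in 14 of 21 alternatives, and the losses included those without control replicate 2 or 3 and without dbdb replicate 2 or 3, with adjusted p up to 0.112 over all alternatives. The call in dbR vs. dbdb was kept in 8 of 21 alternatives, and the losses included those without control replicate 2 or 3, dbdb replicate 1 or 2 or any 1 of the dbR libraries, with adjusted p up to 0.163.

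The other proteoglycans of this kind were not called. Dcn, which encodes decorin, had means of 9.15 ± 3.3, 7.62 ± 2.0 and 11.2 ± 2.9 FPKM (SD, n = 3) in the control, dbdb and dbR mice, and its log2 fold change in dbR vs. dbdb was 0.55 (95% interval -0.04 to 1.13). Lum (lumican) differed between dbdb and control mice by -0.47 on the log2 scale, with a 95% interval from -1.57 to 0.62, and control replicate 1 lay well above the other controls. Vcan, which encodes versican, lay between 0.119 and 0.178 FPKM in all libraries but control replicate 3.

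Among the 5 fibronectin and matricellular genes, Postn was the only one called, as lower in dbdb vs. control, beside 26.4% of all genes tested (13.4% lower). Postn, which encodes periostin (chr3:54361109-54391037, plus strand, GRCm38), had 1.11, 0.266 and 0.630 FPKM in the control mice, 0.256, 0.177 and 0.218 FPKM in the dbdb mice and 0.389, 0.412 and 0.302 FPKM in the dbR mice. The controls were spread over a wide range, and the lowest of them was close to the highest dbdb mouse. Between dbdb and control mice Postn differed by -1.12 ± 0.37 on the log2 scale (SE, limma adjusted p = 0.0475), a call that was kept in 6 of 20 alternatives. Without control replicate 1 this difference was -0.71 (limma adjusted p = 0.136), and with the leading transcript alone it was -0.08 (limma adjusted p = 0.948).

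Fn1, which encodes fibronectin, was called in no comparison. Its means were 4.21 ± 1.2, 4.30 ± 1.2 and 5.89 ± 0.67 FPKM (SD, n = 3) in the control, dbdb and dbR mice. The change on the log2 scale was 0.03 (95% interval -0.46 to 0.53) in dbdb vs. control, 0.47 (95% interval -0.02 to 0.97, limma adjusted p = 0.306) in dbR vs. dbdb and 0.51 (limma adjusted p = 0.126) in dbR vs. control. Sparc had 38.4, 31.8 and 37.7 FPKM in the control mice, 29.1, 32.4 and 30.4 FPKM in the dbdb mice and 38.2, 45.8 and 35.3 FPKM in the dbR mice. Every dbR mouse lay above every dbdb mouse for Sparc, with a log2 fold change of 0.37 ± 0.10 (SE, limma adjusted p = 0.118). Tnc and Tnxb, which encode tenascins, had means between 0.567 and 0.590 FPKM and between 1.69 and 2.05 FPKM over the groups, with log2 fold changes of -0.04 (95% interval -0.40 to 0.31) and 0.28 (95% interval -0.09 to 0.65) in dbR vs. dbdb.

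Among the markers of stromal cells, Pdgfrb and Pdgfra lay higher in every dbR mouse than in any other mouse, as did Bgn, Nid1 and Fbln5. No other marker of the fibroblast and mesangial lists did so. Against the dbdb mice alone, the fibroblast markers Col1a1 and Col3a1 also lay higher in every dbR mouse, and Dpt lay lower in every dbR mouse. Pdgfrb, the receptor of pericytes and mesangial cells, had 5.47, 5.404 and 5.85 FPKM in the control mice, 4.28, 4.31 and 5.16 FPKM in the dbdb mice and 7.18, 8.10 and 7.01 FPKM in the dbR mice, and rose in dbR vs. dbdb by 0.69 on the log2 scale (limma adjusted p = 0.0234). Pdgfra, the receptor of fibroblasts, had 4.19, 3.54 and 4.44 FPKM in the control mice, 5.48, 4.55 and 7.09 FPKM in the dbdb mice and 8.72, 11.1 and 8.94 FPKM in the dbR mice. As for Bgn and Fbln5, dbdb replicate 3 was the highest of the dbdb mice and dbR replicate 2 the highest of the dbR mice in both receptors.

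Of the 5 fibroblast markers, 3 had a log2 fold change above 0 in dbR vs. dbdb and Dpt (-0.33) and Pi16 (-0.30) one below 0, with a median of 0.67 over the list. In dbR vs. control only Pdgfra of these lay above 0, and the median was -0.24. Of the 6 markers of mesangium, pericytes and smooth muscle, 4 lay above 0 in dbR vs. dbdb and Acta2 (-0.07) and Myh11 (-0.18) below 0, with a median of 0.06. In dbR vs. control 3 of these 6 lay above 0, Pdgfrb, Gata3 and Itga8, each without overlap of the groups, of which Pdgfrb and Gata3 rose, and the median was 0.13. The 5 fibroblast markers summed to between 13.4 and 20.1 FPKM in the control mice, between 10.7 and 15.4 FPKM in the dbdb mice and between 16.9 and 21.9 FPKM in the dbR mice, and 1 of them, Col3a1, fell in dbdb vs. control, none was called in dbR vs. dbdb by limma (3 higher at an unadjusted p under 0.05), and Pdgfra rose in dbR vs. control. The 6 markers of mesangium, pericytes and smooth muscle summed to between 25.4 and 44.3 FPKM, between 24.6 and 35.9 FPKM and between 29.4 and 37.5 FPKM in the same order. The 5 macrophage and lymphocyte markers summed to between 14.0 and 17.0 FPKM in the control mice, between 5.31 and 7.03 FPKM in the dbdb mice and between 7.91 and 8.91 FPKM in the dbR mice. The 5 adipocyte markers summed to at most 1.13 FPKM in any library. The part of these cell types in the values of the matrix genes was not tested.

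Genes that act with the matrix genes were counted in the same model, in which 26.4%, 0.743% and 24.1% of all genes tested were called in dbdb vs. control, dbR vs. dbdb and dbR vs. control. Of 21 collagen chain genes tested, 6 were called in dbdb vs. control (3 higher, 3 lower), 2 in dbR vs. dbdb (Col6a1 and Col6a2, both higher in dbR) and 10 in dbR vs. control (8 higher, 2 lower), with a median log2 fold change of 0.23 in dbR vs. dbdb. Col6a2, a chain of type VI collagen, rose by 0.96 on the log2 scale in dbR vs. dbdb (limma adjusted p = 0.0331). Of 12 other elastic fibre and microfibril genes, 4, 0 and 4 were called, and in dbR vs. control all 4 were higher, among them Loxl1, a lysyl oxidase that crosslinks elastin, with means of 2.65, 3.85 and 6.16 FPKM in the control, dbdb and dbR mice. At an unadjusted p under 0.05, 4 of these 12 were higher and 0 lower in dbR vs. dbdb, with a median log2 fold change of 0.22.

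Matrix receptors and proteases were called in both comparisons with the controls. Of 25 receptor genes tested, 12 were called in dbdb vs. control (5 higher, 7 lower), none in dbR vs. dbdb by limma (8 higher and 3 lower at an unadjusted p under 0.05), and 8 in dbR vs. control (5 higher, 3 lower). The smallest p in dbdb vs. control belonged to Itgb6 and Sdc2, with log2 fold changes of -0.91 and -0.57 (limma adjusted p = 0.00013 and 0.0013). Itga1, a chain of a collagen and laminin receptor, fell by 0.36 on the log2 scale (limma adjusted p = 0.002). Bcam, a laminin α5 receptor, rose by 0.56 on the log2 scale (limma adjusted p = 0.00202). Its means were 15.7, 23.2 and 22.5 FPKM in the control, dbdb and dbR mice. Of 21 genes of proteases and their inhibitors, 10 were called in dbdb vs. control (2 higher, 8 lower), among them the meprins Mep1a and Mep1b, proteases of the tubular brush border. None was called in dbR vs. dbdb by limma (6 higher and 2 lower at an unadjusted p under 0.05), and 14 were called in dbR vs. control (5 higher, 9 lower).

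Of 24 other small leucine-rich, matricellular and glycoprotein genes, 6 were called in dbdb vs. control, 1 in dbR vs. dbdb and 9 in dbR vs. control. The one called in dbR vs. dbdb was Ecm1, which encodes extracellular matrix protein 1, with means of 23.7, 33.6 and 81.4 FPKM in the control, dbdb and dbR mice and a log2 fold change of 1.28 (limma adjusted p = 0.00113) in dbR vs. dbdb. Npnt, which encodes nephronectin, rose in dbdb vs. control by 0.78 on the log2 scale, with means of 19.2, 32.9 and 27.6 FPKM. The median log2 fold change of these 24 genes in dbR vs. dbdb was -0.03, compared to 0.29 for the 34 matrix genes, without a test of the difference.

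**Figure D5:**
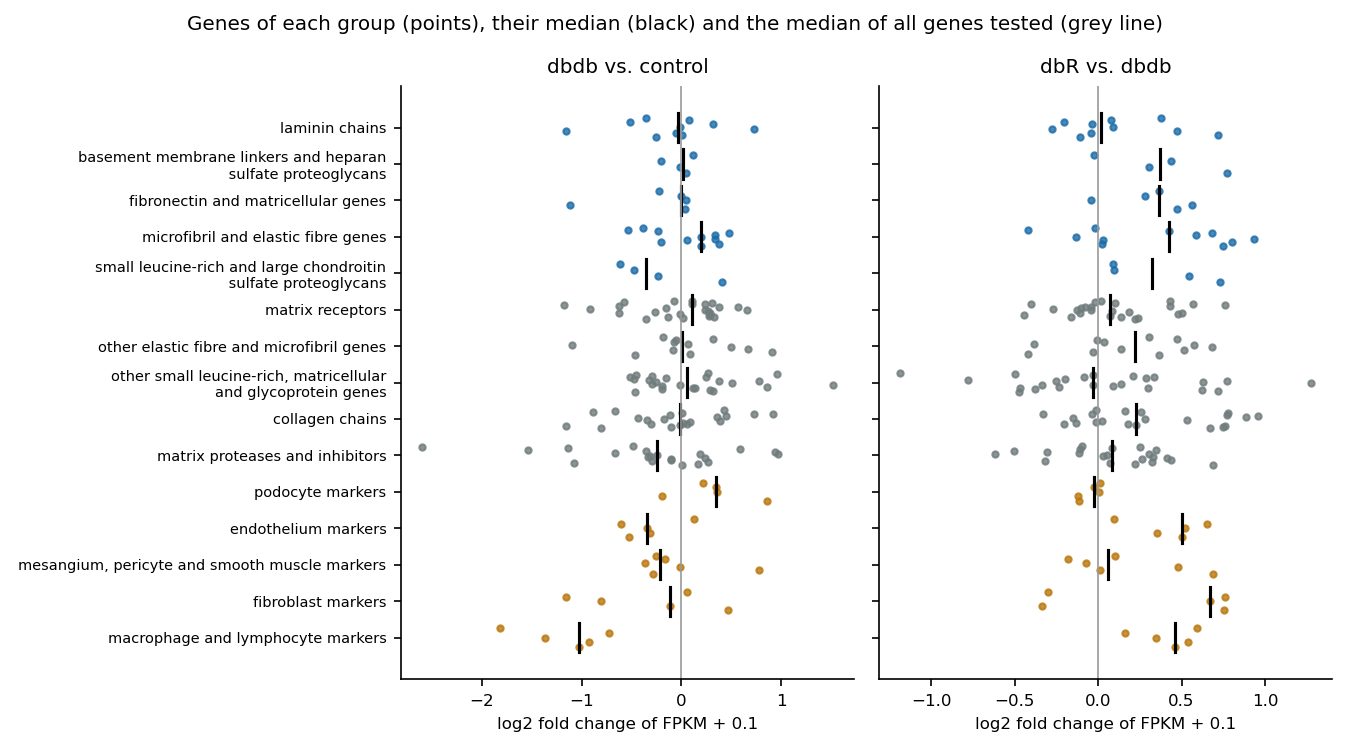
Log2 fold change of FPKM + 0.1 (x axis) of each gene (points) in the 5 role groups of the matrix genes (blue), the other matrix lists (grey) and markers of cell types (brown), in dbdb vs. control (left) and in dbR vs. dbdb (right), with a black bar for the median of each group. In dbR vs. dbdb the medians of the microfibril and elastic fibre genes (0.43), the basement membrane linkers (0.37) and the markers of fibroblasts (0.67), endothelium (0.51) and macrophages and lymphocytes (0.46) lie to the right of 0, while those of the laminin chains (0.02), the mesangial and smooth muscle markers (0.06) and the podocyte markers (-0.03) are close to it.

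The transcripts of the matrix genes were examined apart from the gene sums. The 35 genes had 101 mRNA transcripts, of which 56 were tested, and 10 genes had a single transcript. In dbdb vs. control 3 transcripts were called, beside 9.57% of all transcripts tested, and these belonged to Lama5 and Lamb2, higher, and to Lama4, lower. In dbR vs. dbdb none was called by limma, beside 0.017% of all transcripts tested, and 13 were higher and 2 lower at an unadjusted p under 0.05, beside 5.46% and 5.04% of all transcripts tested. In dbR vs. control 10 were called, 9 higher and 1 lower, beside 8.5% of all transcripts tested. Lamb2 was called for its leading transcript (ENSMUST00000065014) and not for the gene sum. This transcript had 6.12, 5.88 and 5.71 FPKM in the control mice, 8.27, 8.71 and 7.70 FPKM in the dbdb mice and 8.66, 8.89 and 7.99 FPKM in the dbR mice. Every db/db mouse, treated or not, lay above every control, and the log2 fold change of this transcript was 0.47 ± 0.08 (SE, limma adjusted p = 0.00731) in dbdb vs. control and 0.52 ± 0.08 (limma adjusted p = 0.00502) in dbR vs. control. The rest of the gene sum came from transcripts of 332, 345 and 473 bases, whose FPKM reached 4.51 among the control mice.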

How the data were processed

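Renal cortex RNA from 3 mice per group was depleted of ribosomal RNA and sequenced as strand-specific paired reads, 1 library per mouse. The authors aligned the reads to GRCm38.p2 with TopHat 2.0.9, assembled transcripts with Scripture and Cufflinks 2.1.1 and deposited 1 FPKM value per transcript and library. FPKM of genes with several transcripts depends on how Cufflinks divided the reads among them, and with FPKM relative to all mapped fragments an abundant class such as mitochondrial RNA moves all other values. Files of lncRNAs were not used here, and shares of the γ chains are not reported here.

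FPKM of the 50660 mRNA transcripts was summed per gene, as in the study. Genes with a mean of at least 0.1 FPKM were fitted as log2(FPKM + 0.1) with limma 3.58.1 (R 4.3.3, variance trend, two-sided) in 1 model of the 3 groups, with Benjamini-Hochberg adjustment over 14537 genes in each comparison. limma took the place of the count model of Cufflinks, since no read counts were used. For genes with low FPKM this scale makes fold changes too small. The fit was tested on simulated data. Depth was estimated from low FPKM values, of which 90.3% to 93.7% per library came within 0.1 of a whole fragment, and depth covers counting error only.

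Groups came from the sample labels. The members, gene lists and markers were chosen with earlier results of these data known. Values in every library are given for members called in any comparison, members without overlap of the groups in both dbdb vs. control and dbR vs. dbdb, and the 3 members with the highest mean FPKM. From the other lists, only examples among the 3 genes with the smallest p in a comparison are named, and markers are named where they move with a result. Alternatives were other pseudocounts, filters and scalings, the fit without trend, the 6 libraries of a comparison alone, a replicate block, library weights, the leading transcript alone, and leaving out each library. Coordinates came from GENCODE vM21. python 3.11.15, pandas 2.3.3, numpy 2.4.6 and matplotlib 3.10.9 were used.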

Additional observations from a re-analysis of the deposited data

How the results depend on the processing

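The direction of all 19 called results was kept in all alternatives run for them (20 for Postn, 21 for the others). In dbR vs. control, the members called numbered between 9 and 11. All genes called there were 3497, and between 2477 and 3767 in the alternatives. In dbdb vs. control, 6 members were called, against 3 with only the 6 libraries of the comparison and between 2 and 5 when 1 library was left out. The count was lowest without control replicate 3. All genes called there were 3840, against 3376 with only the 6 libraries and between 2755 and 3834 when 1 library was left out. The lowest of these was also without control replicate 3. Pseudocounts and the strictness of the filter moved few calls in these 2 comparisons. Below 1 FPKM, as for Mfap5, Lum and Vcan, the intervals hold both counting error and the spread between mice, which were not separated.

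In dbR vs. dbdb the counts moved most. Of all genes, 108 were called, against 31 with no filter, 166 with a mean of at least 1 FPKM, 209 after scaling to the 75th percentile, 234 after quantile normalization, 18 without the trend, 36 with only the 6 libraries, 280 with library weights, 49 with the leading transcript alone, and between 2 and 141 when 1 library was left out. Of the members, 3 were called, against 1 with no filter, 6 after scaling to the 75th percentile and 6 after quantile normalization. Their number was 1 without mitochondrial genes and with equal sums, 0 without the trend, 0 with only the 6 libraries and 6 with library weights. With the leading transcript alone it was 1, and it was between 0 and 6 when 1 library was left out. The cause was not tested. With the leading transcript alone, Lama3 held 29.3%, 27.5% and 27.8% of the α chains in the control, dbdb and dbR mice, and Lamb1 84.1% and 79.5% of the β chains in the control and dbdb mice.

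The replicate numbers did not pair the mice, since the deviations of libraries with the same number correlated between -0.175 and 0.0615. With the replicate number as a block, 3345, 23 and 3030 genes and 5, 0 and 11 members were called in dbdb vs. control, dbR vs. dbdb and dbR vs. control.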
